A study of Mus musculus with 16 samples.

Results

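Csf1r and Pdgfrb are neighbouring receptor genes on mouse chromosome 18, and the H3K4me1 peaks of 200 kb around them were compared between dendritic cells and 3T3 fibroblasts. The region was set by position, from 61150000 to 61350000 in mm9. It holds Pdgfrb at about 61204000 to 61245000 and Csf1r at about 61265000 to 61291000, both bounds being approximate. In it lay 19 of the 79796 peak summits listed for dendritic cells and 21 of the 81860 listed for 3T3. A summit is the base where a peak of ChIP-seq reads is highest.

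The series holds 16 ChIP-seq samples of dendritic cells and 3T3 fibroblasts, with and without stimulation, and the 2 lists used here are those of H3K4me1 in unstimulated cells. Dendritic cells, which present antigen, were grown from bone marrow progenitors that had been infected with a retrovirus for a hairpin that targets the histone demethylase JmjD2d, with selection in 2 mM histidinol. They were differentiated in GM-CSF (4% X63-GMCSF supernatant) with 5 ng/ml SCF for 4 days and in GM-CSF alone for a further 4 days. For the progenitors a cytokine concentration of 20 ng/ml is recorded. 3T3 is an established mouse fibroblast line, here in standard culture with no treatment recorded. With 1 library for each cell type there is no replicate error and no p-value is given. Cell type and hairpin cannot be told apart. A cell type field labels the 3T3 sample as dendritic cells, but its title, its description and the header of its list say 3T3, the name used here.

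Csf1r encodes the receptor for the growth factors CSF-1 and IL-34, on which monocytes and macrophages depend for survival and differentiation. It is a defining gene of the myeloid lineage, and an enhancer in an intron near its start, known as FIRE, is needed for its expression in some macrophage populations. Pdgfrb encodes the beta receptor for platelet-derived growth factor, which drives the growth and movement of fibroblasts, pericytes and smooth muscle cells. Both proteins are receptor tyrosine kinases of the same family. The genes lie head to tail and are read in the same direction, towards higher coordinates, with Pdgfrb first. In the RefSeq gene order of GRCm38 no other protein-coding gene lies between them, and Gm52351 precedes Pdgfrb while Hmgxb3 follows Csf1r. H3K4me1 is a histone mark of enhancers and of the flanks of promoters, in active and in poised states.

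The 2 cell types marked the same 200 kb with about the same number of summits but at different heights. In dendritic cells the high summits stood at the 3′ part of Pdgfrb, between the genes and inside Csf1r. In 3T3 they stood before and inside Pdgfrb, with 1 lower one near the start of Csf1r. Neither gene was marked in 1 cell type alone. The height is the deposited score, a whole number that the header does not name and that is taken here as the height of the read pile-up at the summit. Over the whole list its median was 36 for dendritic cells and 33 for 3T3. The lists carry no record of a common scale, so each score is read against its own list, and raw scores of both cell types side by side do not compare amounts of the mark. A higher score can come, among other sources, from more cells with the mark or from more of it per cell, which these data cannot tell apart. Use of an input library is not stated, so a rank within a list is not by itself an amount of the mark.

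**Figure D1:**
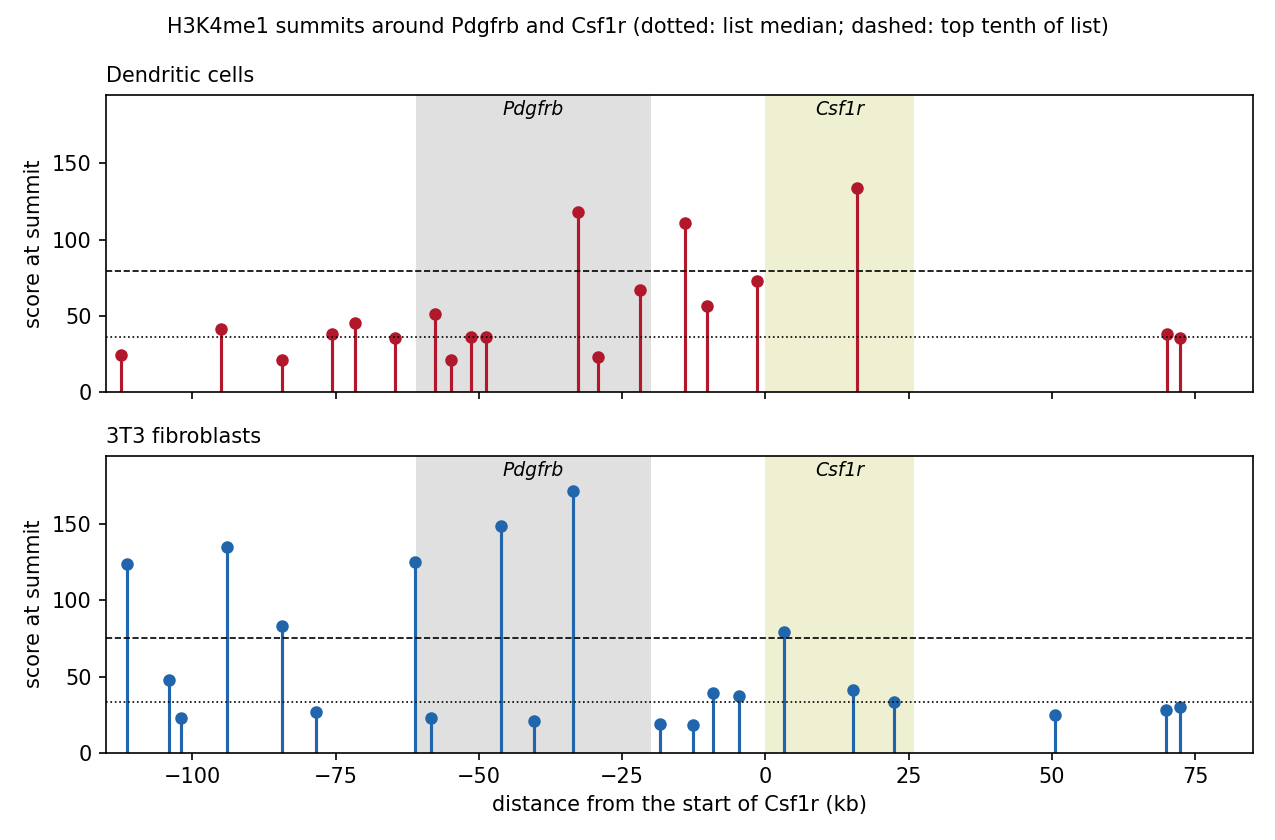
Each stem is 1 H3K4me1 summit, with its score on the vertical axis and its distance from the approximate start of Csf1r (kb) on the horizontal axis; dendritic cells are above and 3T3 fibroblasts below. The highest dendritic cell summit, with a score of 134, lies inside Csf1r, and the highest 3T3 summit, with a score of 172, lies inside Pdgfrb.

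Over Csf1r itself dendritic cells had 1 summit, and it was the highest of their 19 in the region. It lay at 61280958, 16.0 kb into the gene, with a score of 134. In the whole dendritic cell list 99.0% of summits scored lower, and it ranked 17 among the 2616 dendritic cell summits of chromosome 18. 3T3 cells had 3 summits over Csf1r. The first, at 61268241, lay 3.24 kb into the gene and scored 79, above 91.2% of the 3T3 list. The others lay at 61280225 with a score of 41, above 63.9% of the list, and at 61287418 with a score of 33, above 48.8%. All 3 stood lower in the 3T3 list than the dendritic cell summit did in its own, although the dendritic cell count of 1 (exact Poisson 95% interval 0.0253 to 5.57) was below the 3T3 count of 3 (0.619 to 8.77). These intervals overlap and cover counting error only.

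Around the 5′ end of Csf1r both lists had a summit of similar rank, at different positions. The nearest dendritic cell summit to the start lay 1.53 kb before it, at 61263471, with a score of 73, above 87.2% of its list. No dendritic cell summit was listed between that position and 61280958. In this interval 3T3 had the summit at 61268241, with a score of 79, above 91.2% of its list, and, close to the dendritic cell position inside the gene, that at 61280225. Whether the 3T3 summit near the start falls on the intronic enhancer was not examined, since no mm9 annotation of introns was used here. A list gives 1 position per peak and no peak bounds, so the absence of a summit does not show that a stretch is unmarked.

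Over Pdgfrb dendritic cells had 7 summits (exact Poisson 95% interval 2.81 to 14.4) and 3T3 cells had 4 (1.09 to 10.2), and again the list with fewer summits held those of highest rank within their own list. Among the dendritic cell summits, that at 61232380, 28.4 kb into the gene, scored 118, above 98.01% of the list. The next, at 61243066 near the gene's 3′ end, scored 67, above 83.9%. The other 5 lay between 3.37 and 31.7 kb into the gene and scored 51, 36, 36, 23 and 21, of which the first stood above 71.1% of the list and the others at or below its median. In 3T3 the summits at 61231344 and 61218819, 27.3 and 14.8 kb into the gene, scored 172 and 149. They stood above 99.6% and 99.2% of the 3T3 list and ranked 3 and 14 among the 2864 3T3 summits of chromosome 18. The remaining 3T3 summits inside the gene, at 61206583 and 61224541, scored 23 and 21, above 18.1% and 10.8% of the list.

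The highest summits of both cell types inside Pdgfrb lay next to each other. The dendritic cell summit at 61232380 and the 3T3 summit at 61231344 were 1036 bp apart. This stretch of Pdgfrb thus held a high summit in both lists. The 3T3 summit at 61218819 had no such partner: the nearest dendritic cell summit, at 61216284, lay 2535 bp away and scored 36, the median of its list.

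Before Pdgfrb the cell types had nearly the same number of summits at different heights. Dendritic cells had 6 summits in these 54 kb, with scores of 21 to 45, none of them in the top 10% of the list. 3T3 cells had 7 summits there, with scores of 23 to 135. Of these, 4 were in the top 10% of the 3T3 list: the summit at 61171031 scored 135, that at 61203786 scored 125, that at 61153552 scored 124 and that at 61180700 scored 83. The summit at 61203786 lay 0.214 kb before the approximate start of Pdgfrb, a distance smaller than the precision to which that start is given. The nearest dendritic cell summit to the start of Pdgfrb on that side, at 61200435, lay 3.57 kb before it and scored 35. How much of this stretch belongs to Pdgfrb and how much to the genes before it was not examined.

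In the 20 kb between the genes the order turned round. Dendritic cells had 3 summits, at 61250891, 61254877 and 61263471, with scores of 111, 56 and 73. All 3 were above the median of the dendritic cell list, and the first stood above 97.3% of it. 3T3 cells had 4 summits there, with scores of 18, 19, 37 and 39. The lowest of these, at 61252448, stood above 2.41% of the 3T3 list and lay 1557 bp from the dendritic cell summit that scored 111. The dendritic cell summits stood above 75.9 to 97.3% of their list and the 3T3 summits above 2.41 to 60.6% of theirs. With only 3 and 4 summits this difference in rank is a description. How often stretches of 20 kb elsewhere separate likewise was not counted.

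Beyond Csf1r both lists were sparse and held no high summit. Dendritic cells had 2 summits in these 59 kb, scoring 38 and 35, above 52.9% and 47.3% of their list and so about its median. 3T3 cells had 3, scoring 25, 28 and 30, above 25.3%, 35.4% and 41.3% of theirs. The longest dendritic cell gap of the region was 54.1 kb, from 61280958 inside Csf1r to 61335091. It was longer than 92.8% of the gaps between neighbouring summits of that list. The longest 3T3 gap of the region, 28.0 kb from 61287418 to 61315467, began in the same gene and was longer than 82.2% of the gaps of its list. Each gap was picked as the longest of the region and set against all single gaps. A high rank follows from that choice, so these percentages do not show that the gaps are unusual.

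**Figure D2:**
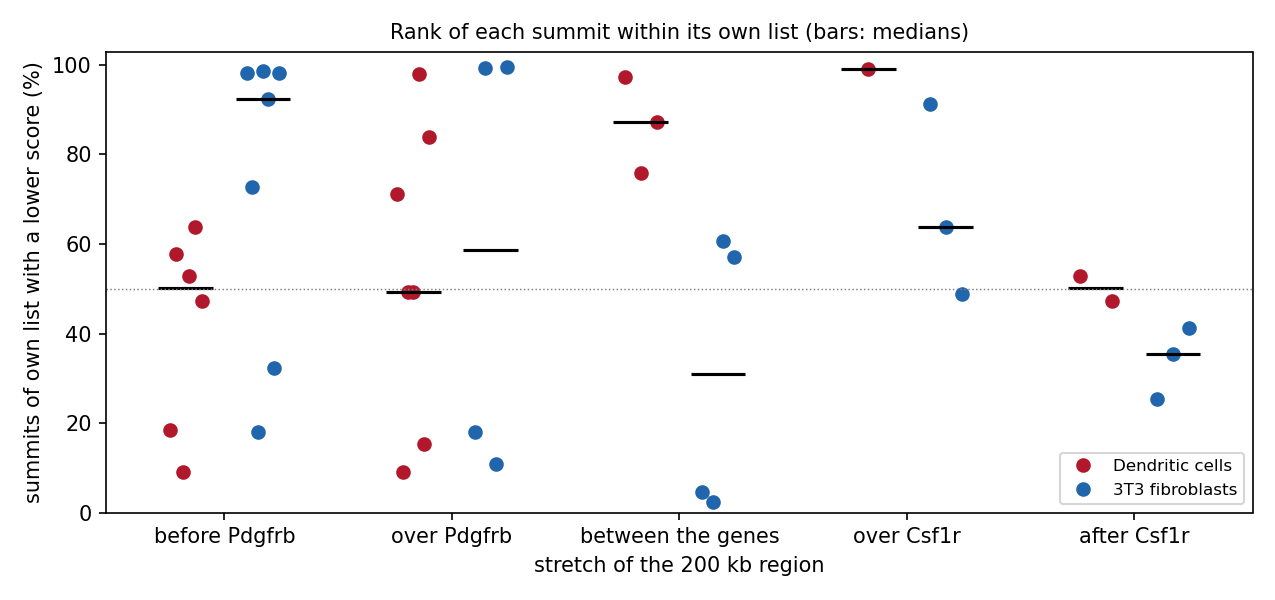
Points give, for each summit, the percentage of summits of its own list with a lower score (vertical axis), by stretch of the region (horizontal axis), with dendritic cells left of 3T3 and bars at the medians. Between the genes the 3 dendritic cell summits lie above all 4 of 3T3, while before Pdgfrb 5 of 7 3T3 summits lie above all 6 dendritic cell summits. Each stretch holds few summits, and how often stretches elsewhere separate likewise was not counted.

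Over the whole region, the median score of each cell type was near that of its list. The median score was 38 in dendritic cells (95% interval from order statistics 35 to 67) and 37 in 3T3 (25 to 83), which is 1.06 times the median of the whole dendritic cell list and 1.12 times that of the whole 3T3 list. Split at the end of Pdgfrb, a choice made after seeing the data, the medians differed in value, though their intervals overlapped on both sides. Before and over Pdgfrb the median was 36 over 13 dendritic cell summits (23 to 51) and 83 over 11 3T3 summits (23 to 149). The first equalled the median of the dendritic cell list, and the second was 2.52 times that of the 3T3 list. From the end of Pdgfrb on, it was 64.5 over 6 dendritic cell summits (35 to 134) and 31.5 over 10 3T3 summits (19 to 41). These were 1.79 times the median of the dendritic cell list and 0.955 times that of the 3T3 list. The intervals are wide and treat summits as independent, which neighbours in 1 domain may not be. With the split midway between the genes, the first 3T3 median was 48 in place of 83, beside 38 in dendritic cells. On the Csf1r side the medians were then 55.5 in dendritic cells and 35 in 3T3.

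The highest summits are given by the same division, with exceptions on both sides. They are part of the scores from which the division was chosen, so their counts are not separate support for it. The top 10% was drawn at a score of 79 in dendritic cells and 75 in 3T3, which with ties took 10.2% of the dendritic cell list and 10.1% of the 3T3 list. In the region it held 3 of the 19 summits of dendritic cells and 7 of the 21 of 3T3. Before and over Pdgfrb these were 1 of 13 in dendritic cells and 6 of 11 in 3T3. From the end of Pdgfrb on they were 2 of 6 in dendritic cells and 1 of 10 in 3T3. With the split midway between the genes the dendritic cell counts were 2 of 15 and 1 of 4, and no longer favoured the Csf1r side in number. The exceptions were the dendritic cell summit at 61232380 in Pdgfrb, with a score of 118, and the 3T3 summit at 61268241 near the start of Csf1r, with a score of 79.

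Set among stretches of the same length elsewhere in the genome, Csf1r had a high summit in dendritic cells and Pdgfrb in both cell types. The genome was divided into tiles of 26 kb for Csf1r (48229 tiles with a summit of either list) and of 41 kb for Pdgfrb (34514 tiles). A tile with no summit of the list being ranked counted as lower. These were 28.2% of the 26 kb tiles for dendritic cells and 20.5% for 3T3, and 25.9% and 16.6% of the 41 kb tiles. In dendritic cells the highest summit over Csf1r exceeded that of 98.5% of tiles, and in 3T3 it exceeded that of 87.4%. The highest summit over Pdgfrb exceeded that of 95.8% of tiles in dendritic cells and 99.2% in 3T3. The numbers ranked differently. The single dendritic cell summit over Csf1r equalled the median of tiles, which was 1, and the 3 summits of 3T3 were more than in 74.0% of tiles. Over Pdgfrb the 7 dendritic cell summits were more than in 95.8% of tiles, and the 4 summits of 3T3 more than in 73.7%. Subtracting the 3T3 number from the dendritic cell number gave -2 over Csf1r and 3 over Pdgfrb, the opposite of the order of the heights. Tiles begin at fixed positions and the genes at their own, so these percentages describe the genes and test nothing.

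**Figure D3:**
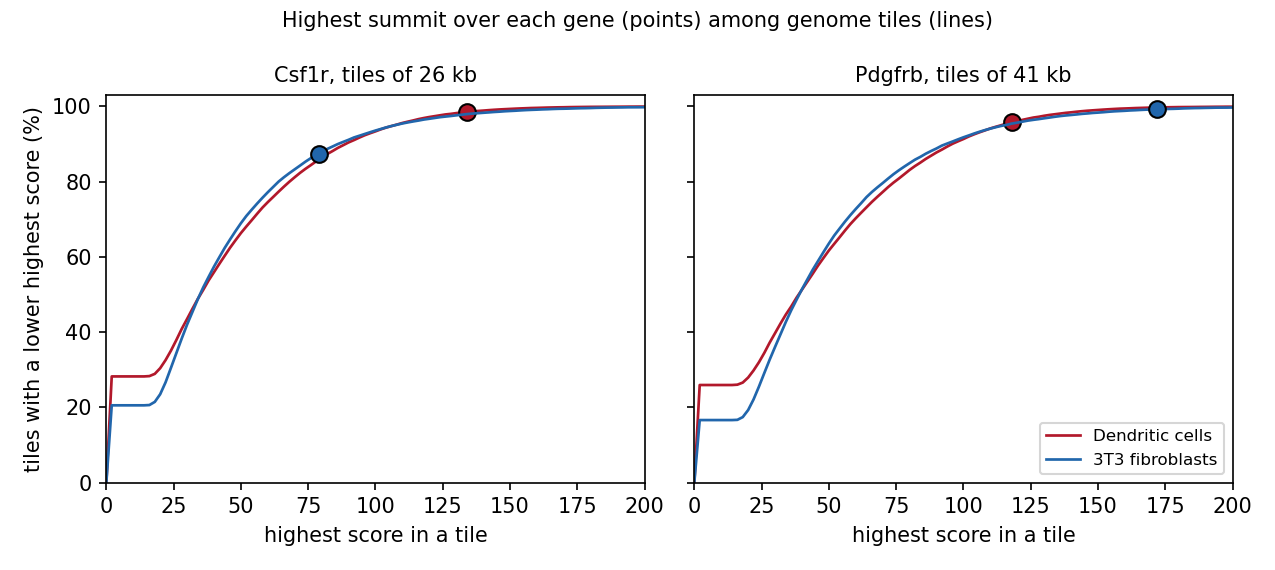
Lines give the percentage of genome tiles whose highest summit scored below the value on the horizontal axis, for dendritic cells and for 3T3, with tiles as long as Csf1r on the left and as Pdgfrb on the right. Points mark the genes: Csf1r stands at 98.5% in dendritic cells and 87.4% in 3T3, and Pdgfrb at 95.8% in dendritic cells and 99.2% in 3T3.

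Most summits of the region had no close counterpart in the other list, as in the genome at large. A counterpart was a summit of the other list within 1000 bp. In the region 13 of 19 dendritic cell summits had none (68.4%, exact Clopper-Pearson 95% interval 43.4 to 87.4), against 69.4% of the whole dendritic cell list. Of the 3T3 summits 15 of 21 had none (71.4%, 47.8 to 88.7), against 70.2% of the whole 3T3 list. By this count the region was close to the background in both cell types. The median distance to the other list was 1557 bp for the dendritic cell summits of the region, against 3234 bp over their whole list. It was 2535 bp for the 3T3 summits, against 3578 bp over theirs.

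The counterparts nearest to the limit of 1000 bp show what the limit decided. Just inside it were the dendritic cell summit at 61170048 and the 3T3 summit at 61171031, 983 bp apart. Just outside were 3 couples, 1027, 1036 and 1037 bp apart, among them the highest summits of both cell types in Pdgfrb. None of the 3 summits between the genes in dendritic cells and none of the 4 in 3T3 had a counterpart within 1000 bp.

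At the 6 couples within 1000 bp the relative log2 score ratio was below 0, towards 3T3, at the 2 couples before Pdgfrb. It was above 0, towards dendritic cells, at the 4 that followed, of which those after Csf1r had only 0.32 and 0.10. For each couple the score ratio of dendritic cells over 3T3 was taken relative to the median of all 24378 mutually nearest couples of the genome, which takes out a constant difference in scale between the lists. Couples of the genome thus divide evenly around 0, and the sign alone does not set a couple apart. In the region 2 of 6 couples were 2-fold or more towards dendritic cells, against 11.6% of all couples, and 2 of 6 towards 3T3, against 11.9%. Before Pdgfrb, the couple at 61170048 and 61171031 had scores of 41 in dendritic cells and 135 in 3T3, a relative log2 ratio of -1.84. The couple at 61180568 and 61180700 had 21 in dendritic cells and 83 in 3T3, a log2 ratio of -2.10. These ratios were lower than those of 97.4% and 98.6% of all couples. Inside Csf1r, the couple at 61280958 and 61280225 had 134 in dendritic cells and 41 in 3T3, a log2 ratio of 1.59 that was higher than in 96.3% of couples.

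Just inside Pdgfrb the dendritic cell summit at 61207368 scored 51 and the 3T3 summit at 61206583 scored 23, a log2 ratio of 1.03. After Csf1r the couples at 61335091 and 61334923 and at 61337383 and 61337398 had log2 ratios of 0.32 and 0.10, within the middle of all couples. The members of the last couple were 15 bp apart, the closest in the region.

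Allowing 2000 bp added 4 couples, and ratios are then relative to 31152 couples. The first, at 61152525 in dendritic cells and 61153552 in 3T3, had scores of 24 and 124 and a log2 ratio of -2.50. The couple of high summits in Pdgfrb, with 118 in dendritic cells and 172 in 3T3, had -0.67. Between the genes, the couple at 61250891 and 61252448 had 111 in dendritic cells and 18 in 3T3, a log2 ratio of 2.49 that was higher than in 99.7% of couples. Its members lay 1557 bp apart, so they may not be the same site, and the 3T3 score was near the lowest of its list, 13. The couple at 61254877 and 61255914 had 56 in dendritic cells and 39 in 3T3, and a log2 ratio of 0.39. At this distance the 3 couples before Pdgfrb all had log2 ratios of -1.85 or below, and the 5 after its end all had ratios above 0. Those over Pdgfrb went both ways, with 1.02 and -0.67. Ratios are relative to the median couple, so couples of the genome divide evenly around 0, and the couples after Csf1r had only 0.31 and 0.09. The scores are among those from which the division at the end of Pdgfrb was chosen, so the ratios are not separate support for it. The median log2 ratio was 0.20 over the 10 couples of the region and 0.04 over the 1024 couples of chromosome 18.

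**Figure D4:**
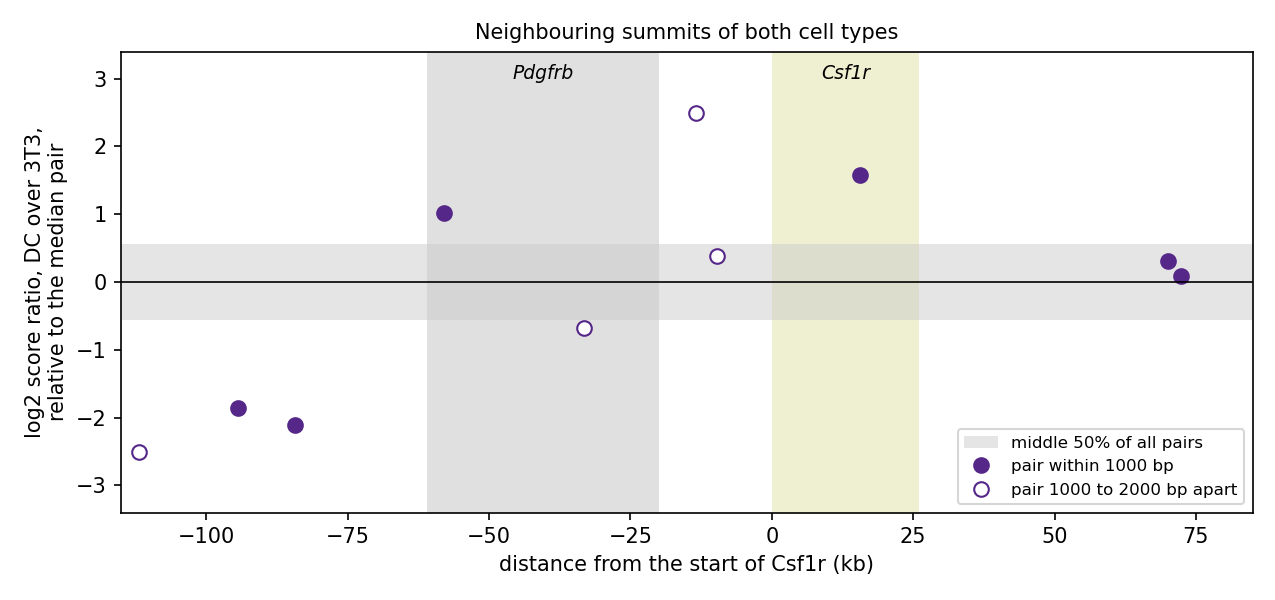
Each point is a dendritic cell summit and its mutually nearest 3T3 summit within 2000 bp, at their mean distance from the start of Csf1r (kb, horizontal axis), with the log2 score ratio of dendritic cells over 3T3 relative to the median couple (vertical axis); filled points are within 1000 bp, and the band holds the middle 50% of all couples. Ratios run from -2.50 before Pdgfrb to 2.49 between the genes, both at couples more than 1000 bp apart.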

How the data were processed

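H3K4me1 was mapped by ChIP-seq with 36 bp single reads. Per the submitters' processing notes, reads were aligned with Bowtie and peaks called with MACS 1.4 on mm9. Per the file headers, peaks were called at a p threshold of 1e-04, without a fragment model or local background, at a shift of 150 bp. Use of an input library is not stated. The authors deposited 1 bp summits with a score, read here as a signal height, with no recorded normalization. Read totals, and with them the depth, are unknown. The lists start at a score of 13, so a missing summit means that none was called.

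Positions are 1-based in mm9. The region and the approximate gene bounds were given with the choice of genes, and members, bounds and measures were chosen with earlier results of these data known. All 19 dendritic cell and 21 3T3 summits of the region were used, and the named genes are the 2 members. Couples are mutually nearest summits. Tiles leave out the Y chromosome and mitochondrial DNA. The planned gene comparisons beyond the members need an mm9 annotation and were not made. The other 14 samples were not analysed here. The finding of counterparts and couples was tested with partners planted beside well separated summits of the 3T3 list. Crowded summits were not covered by that test. Tile counts were checked on the 3T3 list itself. Ranks and the Poisson and Clopper-Pearson intervals were not tested. Python 3.11.15, numpy 2.4.6, pandas 2.3.3, scipy 1.17.1 and matplotlib 3.10.9 were used.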

Additional observations from a re-analysis of the deposited data

How the results depend on the processing

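Of 89 recomputed values 65 stayed close to the value reported, which for a count means within 1.5 times of it and for any other value within its 95% interval. Among the settings was the merging of summits of a list within 1000 bp, which left 19 dendritic cell and 21 3T3 summits in the region. This setting altered the lists too little to move a value, so the 65 overstate how stable the results are. Keeping the 39898 highest summits of each list left 11 of 21 3T3 summits in the region and 2 of 4 over Pdgfrb, and 2 couples whose median log2 ratio was -0.10 in place of 0.21. It also put the 3T3 median before and over Pdgfrb at 125 in place of 83. Gene bounds widened by 5 kb gave 2 dendritic cell summits over Csf1r in place of 1; widened by 10 kb they gave 2 dendritic cell and 5 3T3 summits over Csf1r, and 7 3T3 summits over Pdgfrb. With the region split midway between the genes, a choice made after seeing the data, the summits in the top 10% of the dendritic cell list were 2 on the Pdgfrb side and 1 on the Csf1r side, in place of 1 and 2.

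The ranks among tiles moved with the tiles counted, and the highest summits over Pdgfrb in 3T3 and over Csf1r in dendritic cells stayed above 97% of tiles in each setting. Tiles with no summit of either list were then included as well. The highest summit over Csf1r exceeded 99.3% of tiles in dendritic cells and 94.0% in 3T3, and that over Pdgfrb 97.7% in dendritic cells and 99.6% in 3T3. The numbers over Csf1r exceeded 65.9% in dendritic cells and 87.6% in 3T3, and those over Pdgfrb 97.8% in dendritic cells and 85.9% in 3T3. With the 39898 highest summits of each list, the highest summit exceeded 97.9% of tiles in dendritic cells and 82.5% in 3T3 over Csf1r, and 94.4% in dendritic cells and 98.9% in 3T3 over Pdgfrb; the numbers exceeded 32.7% in dendritic cells and 69.1% in 3T3 over Csf1r, and 58.1% in 3T3 over Pdgfrb. Distances of 250, 500 and 2000 bp left 84.2, 84.2 and 47.4% of the dendritic cell summits without a counterpart, against 82.2, 77.0 and 59.2% of the whole list, and 85.7, 85.7 and 52.4% of the 3T3 summits, against 82.7, 77.6 and 60.4% of theirs. No paired analysis was possible because each cell type is 1 library, which also means that no replicate could be left out. Depth is unknown.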
